A study of Mus musculus with 16 samples.

Results

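The proteasome subunit genes were described in interscapular brown fat of mice, a heat-producing fat depot, at 2 ambient temperatures and with or without Akt2. Members were the rows of the deposited count table whose gene symbol was Psma, Psmb, Psmc or Psmd followed by a digit, without pseudogenes. Of 38924 rows, 43 carried such a symbol, 3 of them pseudogenes with at most 4 counts in any library, which left 40 members. The members were 32 constitutive subunits of the 26S proteasome, the 3 immunoproteasome subunits Psmb8, Psmb9 and Psmb10, the thymus subunit Psmb11, the assembly chaperones Psmd5, Psmd9 and Psmd10, and Psmc3ip. Psmc3ip met the naming rule but encodes a cofactor of meiotic recombination and no proteasome subunit.

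All mice were C57BL/6J. They spent 4 weeks, between the ages of 9 and 13 weeks, either at thermoneutrality (30 °C) or at room temperature (22 °C). Wild-type littermates (WT) were compared with mice that lacked Akt2 in brown fat (KO), made with UCP1-CreER, an inducible Cre recombinase whose expression is driven by the Ucp1 promoter. Each of the 4 groups had 4 libraries, and the labels number them as separate samples but do not state that they are different animals, which limits p-values to the spread between these samples. The recombination is limited to cells that use the Ucp1 promoter, and the RNA came from whole tissue. In such bulk samples fewer cells of a type and less RNA per cell cannot be told apart.

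The 26S proteasome degrades proteins tagged with ubiquitin. Its 20S core is a stack of rings of alpha subunits (Psma genes) and beta subunits (Psmb genes), of which the products of Psmb5, Psmb6 and Psmb7 carry the peptidase sites. The 19S cap on its ends has a base with ATPases (Psmc genes) that unfold the substrate and a lid (Psmd genes) that removes ubiquitin. In cells exposed to interferon gamma, and in many immune cells, Psmb8, Psmb9 and Psmb10 take the places of Psmb5, Psmb6 and Psmb7 to form the immunoproteasome, whose peptides feed antigen presentation. In brown fat, proteasome activity is known to be needed for adaptation to cold, with the transcription factor NFE2L1 as an activator of the subunit genes.

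Library totals ranged from 12751528 to 23866743 counts. Akt2 was lower in every KO library (56.2 to 89.3 CPM, the read count scaled to library size) than in every WT library (192 to 261 CPM), with a log2 fold change of -1.55 (SE 0.105, edgeR adjusted p = 2.13e-06) at 30 °C and -1.495 (SE 0.105, edgeR adjusted p = 5.06e-07) at 22 °C. WT replicate 2 at 22 °C stood apart from its group. Mitochondrially encoded genes took 12.8% of its counts and 18.9% to 19.5% in the other 3, and it had the highest level of its group for 29 of the 31 constitutive subunits tested, at a median of 1.36 times the mean of the others. Counts that rest on it are therefore also given without it. Skeletal muscle markers took over 0.1% of counts in 4 libraries, WT replicate 2 and KO replicates 1 and 2 at 30 °C and KO replicate 1 at 22 °C, and these 4 are called muscle-bearing. Runs without them have fewer libraries, with only replicates 3 and 4 left in KO at 30 °C.

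At 30 °C in WT the subunits differed widely in level. Per kilobase of transcript, which allows genes to be compared, the highest level was that of Psma6 of the alpha ring, at 137 ± 2.397 CPM per kilobase (SD, n = 4). Psmb6, a peptidase subunit, followed at 125 ± 7.99, a lead for Psma6 larger than both spreads, and then Psmd8 of the lid at 111 ± 8.86. The neighbours Psmd8, Psmb7 at 106 ± 2.21 and Psmb4 at 102 ± 5.49 did not differ beyond their spread. This order depends on the length used, here that of 1 transcript per gene. It was 798 bases for Psmb6 and 1160 for Psmb7, while all annotated exons together span 1872 and 3421 bases. For Psma6 the 2 lengths were closer, at 1042 and 1234 bases. Among constitutive subunits that passed the filter on low counts, the lowest were Psma5 at 6.18 ± 0.525 and Psma3 at 6.06 ± 0.240, also within their spread. The immunoproteasome genes were in the lower part of the order, with Psmb10 at 27.8 ± 4.45, Psmb8 at 17.1 ± 3.84 and Psmb9 at 15.5 ± 3.49. Psma8, the alpha subunit of the testis proteasome, reached at most 0.184 CPM in any library and Psmb11 at most 0.0492 CPM, and neither passed the filter. The other 38 members were tested, with 15 to 4892 counts per library.

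The first comparison asked how the lower temperature acted on these genes in WT. All 31 constitutive subunits tested were called higher at 22 °C than at 30 °C, while none of the 3 immunoproteasome genes was called. Calls are at a Benjamini-Hochberg adjusted p under 0.05 over all 14103 genes tested with edgeR. Over all tested genes, 20.5% were called higher and 17.8% lower, and among the 38 members 34 were called higher and 0 lower. The median log2 fold change of the constitutive subunits was 0.61, from 0.33 for Psmc6 to 0.92 for Psmc4, beside a median of -0.03 over all genes. The libraries of the groups did not overlap for 30 of the 31, beside 18.4% of all genes that were higher and 16.9% that were lower without overlap. Psmb6 was the exception.

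**Figure D1:**
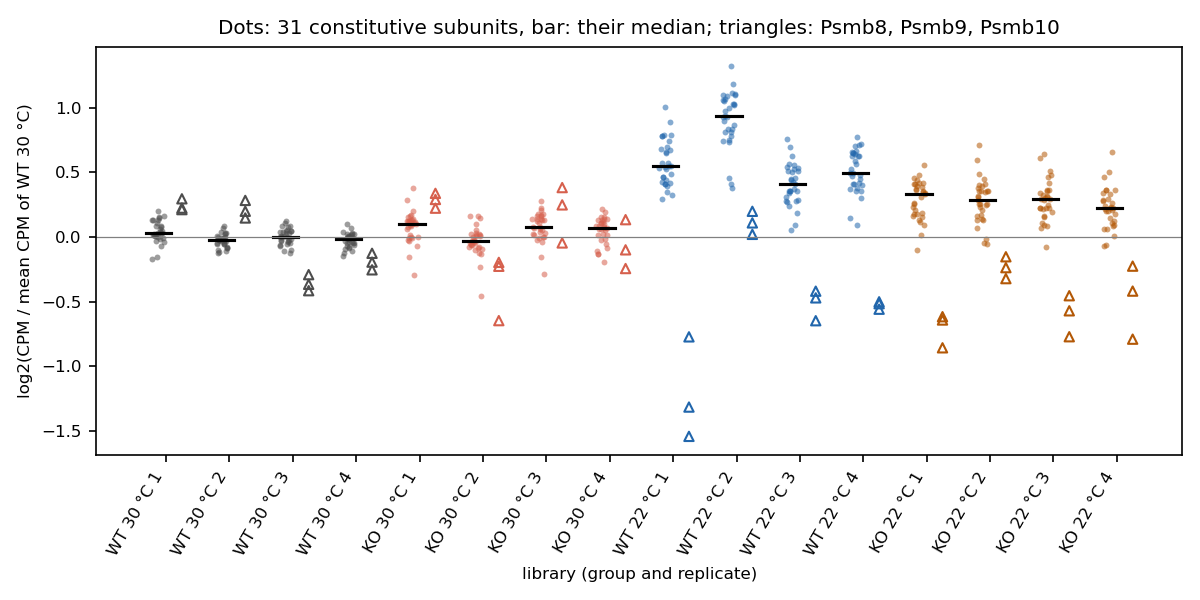
Level of each tested subunit in every library as log2 of its CPM over its mean CPM in WT at 30 °C, with dots for the 31 constitutive subunits, a bar for their median and triangles for Psmb8, Psmb9 and Psmb10. The medians of the WT libraries at 22 °C lie at 0.41 to 0.94, those of KO at 22 °C at 0.23 to 0.33 and all 8 medians at 30 °C at -0.03 to 0.10.

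Each layer of the particle took part. All 7 tested alpha ring genes were higher (median log2 fold change 0.64), as were all 7 constitutive beta ring genes (0.68), all 6 ATPases of the base (0.57), the 3 other base subunits Psmd1, Psmd2 and Psmd4 (0.55) and all 8 lid subunits (0.60). Of the assembly chaperones, which hold base subunits during assembly, Psmd10 (0.57) and Psmd5 (0.41) were higher and Psmd9 was not called (0.19, edgeR adjusted p = 0.162). Psmc3ip was called (0.58, edgeR adjusted p = 0.0454) at a level of only 1.27 ± 0.272 CPM in WT at 30 °C. This call was kept in only 4 of 23 alternative settings. Mlx overlaps Psmc3ip on the opposite strand, with counts at 1650% of those of Psmc3ip.

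The member with the smallest p was Psmd14 (ENSMUSG00000026914, chromosome 2, 61711694 to 61800376, plus strand, GRCm38), which encodes the lid enzyme that cuts ubiquitin chains off the substrate. In WT it measured 45.8, 45.3, 48.9 and 44.1 CPM at 30 °C and 79.7, 98.4, 78.1 and 78.7 CPM at 22 °C. All libraries at 22 °C were far above all at 30 °C, and replicate 2 at 22 °C was the highest. The log2 fold change was 0.86 (SE 0.0774, edgeR adjusted p = 1.26e-06), and the call was kept in all 23 alternative settings.

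Psma1 of the alpha ring measured 109, 104, 105 and 113 CPM at 30 °C and 186, 220.3, 174 and 166 CPM at 22 °C in WT, a log2 fold change of 0.79 (SE 0.0808, edgeR adjusted p = 3.82e-06). The groups were clearly apart. Psmd12, a scaffold subunit of the lid, measured 58.7, 53.1, 59.5 and 59.3 CPM at 30 °C and 96.3, 110.5, 85.4 and 94.1 CPM at 22 °C, a log2 fold change of 0.74 (SE 0.0759, edgeR adjusted p = 3.87e-06). Here too no library at 30 °C reached the lowest at 22 °C. The largest fold change of all members was that of the ATPase gene Psmc4, named after its values were seen, from 57.5 ± 3.75 to 109 ± 27.1 CPM (log2 fold change 0.92, SE 0.127, edgeR adjusted p = 5.10e-05), with libraries at 22 °C between 82.8 and 144 CPM.

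**Figure D2:**
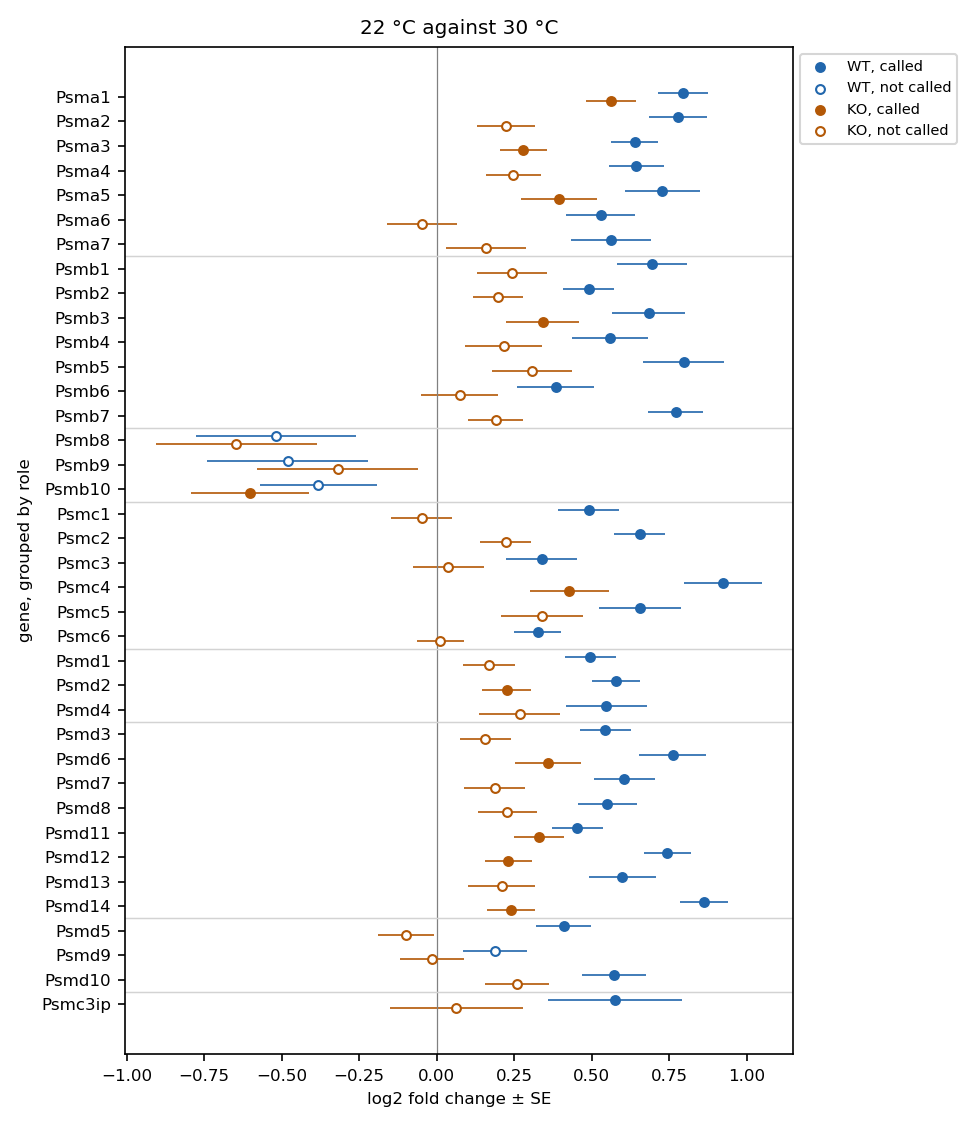
Log2 fold change at 22 °C against 30 °C with its standard error for the 38 tested members, grouped by role from the alpha ring (top) to Psmc3ip (bottom), in WT (blue) and KO (orange), with filled points for calls. The constitutive subunits lie between 0.33 and 0.92 in WT and between -0.05 and 0.56 in KO, and the immunoproteasome genes lie below 0 in both genotypes.

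Without WT replicate 2 at 22 °C, 30 of the 31 constitutive subunits were called higher, all but Psmc3 (0.17, adjusted p = 0.0647 with edgeR), with a median of 0.52. The scaling of the libraries weighed more. The trimmed-mean factors used here were lower in WT at 22 °C (median 0.903) than in WT at 30 °C (1.09). With library totals alone the median over all genes moved to -0.31 and that of the constitutive subunits to 0.33. A change of scaling moves all genes together, so the distance between these medians cannot test the rise. Of the 31 constitutive subunits 21 were called higher. With those totals 22 of the 38 members were called higher and 3 lower, the 3 being the immunoproteasome genes. As a share of all counts outside mitochondrially encoded genes, the constitutive subunits took 0.341% to 0.351% in WT at 30 °C and 0.356% to 0.463% at 22 °C. The groups were narrowly apart, with replicate 2 at 22 °C the highest. The medians of this share were 0.342% and 0.371%, a smaller relative rise than that of the TMM-scaled sum, with medians of 2374 and 3417 CPM. In KO the share was 0.335% to 0.364% at 30 °C and 0.354% to 0.368% at 22 °C, where the temperatures overlapped, as did KO and WT at 22 °C.

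The promoters of constitutive subunits are shown because these genes were higher together in WT at 22 °C and because NFE2L1 and its relatives bind antioxidant response elements. A RefSeq promoter window (GRCm38.p6, 250 bases before to 50 after the start site) was held for 33 of the 40 members, 25 of them constitutive subunits. The core TGACNNNGC was searched on both strands. It was found in 4 of the 25 constitutive windows, beside 14.0% of 27025 genes with a window, and in 0 of 3 immunoproteasome windows. The core of interferon-stimulated response elements, GAAA and GAAA with any 2 bases between them, was in 2 of 25, beside 3.99% of genes, and in 0 of 3 immunoproteasome windows. A CCAAT box (CCAAT on either strand) was in 10 of 25, beside 41.1% of genes, and in 1 of 3 immunoproteasome windows, that of Psmb9. The shares of the first and the last motif lie near those of all genes, and the interferon core rests on 2 genes, Psmb3 and Psmd4. The window of the assembly chaperone gene Psmd9 also held TGACNNNGC and the interferon core and is not shown. The 4 constitutive windows with TGACNNNGC follow, upstream of the start site and up to the first annotated exon, with the match in capitals. The window of Psmd14, which held no TGACNNNGC, comes last.
Psmb5, chr14:54618023-54618245, minus strand: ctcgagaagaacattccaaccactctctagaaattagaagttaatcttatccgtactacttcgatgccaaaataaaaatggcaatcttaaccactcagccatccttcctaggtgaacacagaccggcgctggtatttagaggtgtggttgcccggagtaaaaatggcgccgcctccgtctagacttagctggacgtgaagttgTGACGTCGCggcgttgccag
Psmb6, chr11:70525107-70525356, plus strand: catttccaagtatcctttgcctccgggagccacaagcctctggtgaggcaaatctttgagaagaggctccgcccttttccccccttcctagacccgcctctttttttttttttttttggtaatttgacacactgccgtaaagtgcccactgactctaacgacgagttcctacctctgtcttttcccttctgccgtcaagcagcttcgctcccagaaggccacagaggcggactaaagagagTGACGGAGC
Psmc6, chr14:45329574-45329787, plus strand, match on the opposite strand: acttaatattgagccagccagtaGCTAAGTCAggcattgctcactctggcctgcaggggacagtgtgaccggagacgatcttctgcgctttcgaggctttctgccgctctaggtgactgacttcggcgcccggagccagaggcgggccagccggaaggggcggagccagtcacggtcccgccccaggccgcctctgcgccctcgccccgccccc
Psmd12, chr11:107479278-107479483, plus strand, match on the opposite strand: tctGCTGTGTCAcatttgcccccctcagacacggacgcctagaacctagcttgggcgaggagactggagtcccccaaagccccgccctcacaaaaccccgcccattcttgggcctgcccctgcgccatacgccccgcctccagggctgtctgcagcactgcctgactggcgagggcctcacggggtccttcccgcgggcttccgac
Psmd14, chr2:61711444-61711693, plus strand: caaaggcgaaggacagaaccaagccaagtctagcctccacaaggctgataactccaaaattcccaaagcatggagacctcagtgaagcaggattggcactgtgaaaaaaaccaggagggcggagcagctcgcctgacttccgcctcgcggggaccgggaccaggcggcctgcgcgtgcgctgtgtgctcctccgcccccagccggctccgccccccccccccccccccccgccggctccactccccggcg

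The 4 constitutive genes with the core did not move alike in WT, and the chaperone gene Psmd9, also with the core, was not called. Psmd12 (log2 fold change 0.74) and Psmb5 (0.80) were among the larger changes of the 31, Psmc6 (0.33) was the smallest and Psmb6 (0.38) was near it. Psmd14, without a match, had the second largest change. A match is a description of letters in this window only. Its relation to the fold changes was not tested, and the other windows without a match are not set beside them.

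The 3 catalytic pairs were examined gene by gene. Psmb5 (ENSMUSG00000022193, chromosome 14, 54614119 to 54618022, minus strand), whose product cuts after hydrophobic residues, measured 32.4, 28.0, 29.7 and 26.2 CPM in WT at 30 °C and 53.9, 66.1, 41.1 and 41.1 CPM at 22 °C. The KO libraries gave 31.8, 27.5, 32.5 and 31.4 CPM at 30 °C and 37.0, 38.3, 40.6 and 36.7 CPM at 22 °C. The temperatures did not overlap in either genotype, and the KO libraries at 22 °C all lay below the lowest WT library. The log2 fold change with temperature was 0.80 (SE 0.130, edgeR adjusted p = 0.000219) in WT and 0.31 (SE 0.130, edgeR adjusted p = 0.0907) in KO.

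Psmb6 (ENSMUSG00000018286, chromosome 11, 70525367 to 70527858, plus strand), which cuts after acidic residues, measured 109.5, 97.9, 95.4 and 97.7 CPM in WT at 30 °C and 126, 179, 107 and 111 CPM at 22 °C. In KO it measured 109, 96.9, 110.5 and 109 CPM at 30 °C and 114, 109.5, 114 and 109 CPM at 22 °C. The groups overlapped in both genotypes, and WT replicate 2 at 22 °C was far above the rest. The log2 fold change was 0.38 (SE 0.125, edgeR adjusted p = 0.0238) in WT, or 0.19 (SE 0.0705, edgeR adjusted p = 0.0461) without that replicate, and 0.07 (SE 0.125, edgeR adjusted p = 0.700) in KO. The call in WT did not hold when replicate 2, 3 or 4 of WT at 30 °C was left out (edgeR adjusted p = 0.0636, 0.0688 and 0.0626), nor without the muscle-bearing libraries (0.0837), with upper-quartile factors (0.0820) or with library totals alone (0.511).

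Psmb7 (ENSMUSG00000026750, chromosome 2, 38588036 to 38644087, minus strand), which cuts after basic residues, measured 121, 126, 123 and 120.2 CPM in WT at 30 °C and 212, 256, 180.3 and 189.7 CPM at 22 °C. Psmb7 in KO measured 133, 120.4, 126 and 128 CPM at 30 °C and 142, 147, 143 and 148 CPM at 22 °C. Temperature separated the libraries in both genotypes, widely in WT and narrowly in KO. Its change with temperature on the log2 scale was 0.77 (SE 0.0889, edgeR adjusted p = 1.16e-05) in WT and 0.19 (SE 0.0886, edgeR adjusted p = 0.125) in KO. Nek6 overlaps Psmb7 on the opposite strand, with counts of 8.08% of those of Psmb7.

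The immunoproteasome genes had the opposite sign. Psmb8 (ENSMUSG00000024338, chromosome 17, 34197721 to 34201454, plus strand), the counterpart of Psmb5, measured 32.5, 33.9, 21.6 and 23.3 CPM in WT at 30 °C and 9.55, 28.2, 20.8 and 19.5 CPM at 22 °C. The KO libraries gave 35.2, 23.8, 33.1 and 25.98 CPM at 30 °C and 17.8, 25.03, 16.3 and 16.1 CPM at 22 °C. Values at 22 °C were mostly lower, with 1 library in each genotype within the range at 30 °C. The log2 fold changes of -0.52 (SE 0.259, edgeR adjusted p = 0.127) in WT and -0.65 (SE 0.260, edgeR adjusted p = 0.0773) in KO did not pass the test.

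Psmb9 (ENSMUSG00000096727, chromosome 17, 34181987 to 34187764, minus strand), the counterpart of Psmb6, measured 25.7, 24.1, 15.7 and 18.3 CPM in WT at 30 °C and 8.42, 22.6, 15.1 and 14.2 CPM at 22 °C. In KO it measured 25.6, 13.4, 20.3 and 17.7 CPM at 30 °C and 11.6, 16.8, 15.3 and 17.9 CPM at 22 °C. The groups overlapped in both genotypes. With temperature it changed by -0.48 on the log2 scale (SE 0.259, edgeR adjusted p = 0.157) in WT and by -0.32 (SE 0.259, edgeR adjusted p = 0.385) in KO. Psmb9 shares 212 bases with Tap1 on the opposite strand, and the strand setting of the counting is not given, so reads there cannot be told apart.

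Psmb10 (ENSMUSG00000031897, chromosome 8, 105935735 to 105938444, minus strand), the counterpart of Psmb7, measured 42.2, 40.3, 29.8 and 33.4 CPM in WT at 30 °C and 21.3, 41.8, 23.3 and 25.7 CPM at 22 °C. The KO libraries gave 42.5, 31.8, 47.5 and 40.0 CPM at 30 °C and 23.8, 30.9, 24.5 and 27.3 CPM at 22 °C. In KO every library at 22 °C was below every library at 30 °C, and in WT replicate 2 at 22 °C was the only one above the lowest at 30 °C. The log2 fold change was -0.38 (SE 0.189, edgeR adjusted p = 0.125) in WT and -0.60 (SE 0.190, edgeR adjusted p = 0.0286) in KO. The KO call was lost without KO replicate 1, 3 or 4 at 30 °C (adjusted p = 0.0656, 0.0876 and 0.0566 with edgeR) or at 22 °C (0.0646, 0.0727 and 0.0582) and without the muscle-bearing libraries (0.0942).

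The WT calls of these 3 genes turned on WT replicate 2 at 22 °C. It had the highest level of its group for each of them. Without it all 3 were called lower in WT, with log2 fold changes of -0.75 for Psmb8 (SE 0.259, edgeR adjusted p = 0.0357), -0.74 for Psmb9 (SE 0.250, edgeR adjusted p = 0.0325) and -0.64 for Psmb10 (SE 0.148, edgeR adjusted p = 0.00409). With library totals alone they were also called lower in WT, at adjusted p = 0.0234, 0.0300 and 0.0121 with edgeR.

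**Figure D3:**
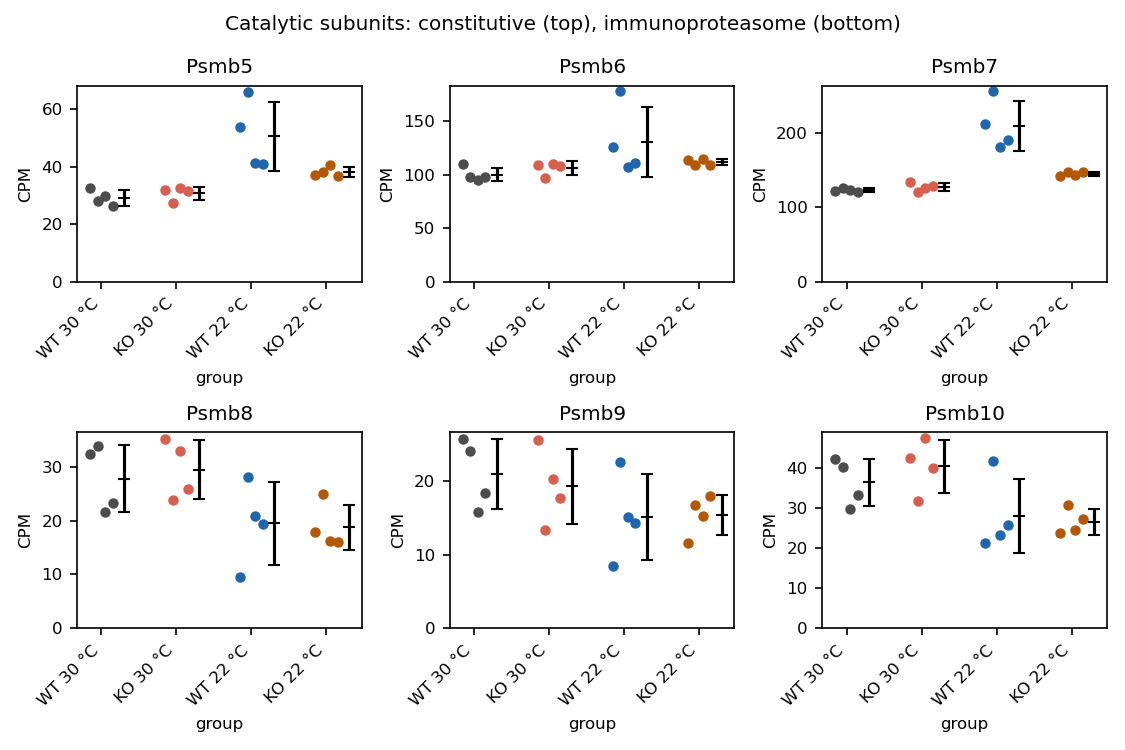
CPM of the constitutive catalytic genes (top) and their immunoproteasome counterparts (bottom) in each library, with points for the 4 libraries of a group in replicate order and a bar for the mean ± SD. In WT, Psmb5 and Psmb7 are higher at 22 °C in every library, and the highest point of Psmb8, Psmb9 and Psmb10 at 22 °C is replicate 2.

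Within a library, a ratio of these genes does not depend on the scaling. The share of Psmb8, Psmb9 and Psmb10 in the summed per-kilobase level of the 6 catalytic genes was 20.4%, 20.9%, 15.5% and 17.3% in WT at 30 °C and 6.62%, 11.3%, 11.1% and 10.8% at 22 °C. In KO it was 20.3%, 16.01%, 20.2% and 17.5% at 30 °C and 11.0%, 14.4%, 11.4% and 12.6% at 22 °C. Every library at 22 °C was below every library at 30 °C, WT replicate 2 included, which lay with replicates 3 and 4 of its group. The means were 18.5% ± 2.56 and 9.94% ± 2.22 in WT and 18.5% ± 2.11 and 12.3% ± 1.52 in KO (SD, n = 4, no test made). At 22 °C the lowest KO library, at 11.0%, lay within the range of WT.

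The ratio within each pair, not tested, was lower at 22 °C on average for all 3. The log2 ratio of Psmb8 to Psmb5 per kilobase averaged -0.94 ± 0.308 at 30 °C and -2.30 ± 0.707 at 22 °C in WT, and -0.93 ± 0.196 and -1.90 ± 0.306 in KO. That of Psmb10 to Psmb7 averaged -1.94 ± 0.233 and -3.12 ± 0.287 in WT, and -1.84 ± 0.210 and -2.63 ± 0.148 in KO. For both pairs the temperatures did not overlap in either genotype. That of Psmb9 to Psmb6 averaged -3.04 ± 0.272 and -3.93 ± 0.494 in WT, and -3.26 ± 0.325 and -3.64 ± 0.304 in KO, where the temperatures overlapped in KO and not in WT.

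**Figure D4:**
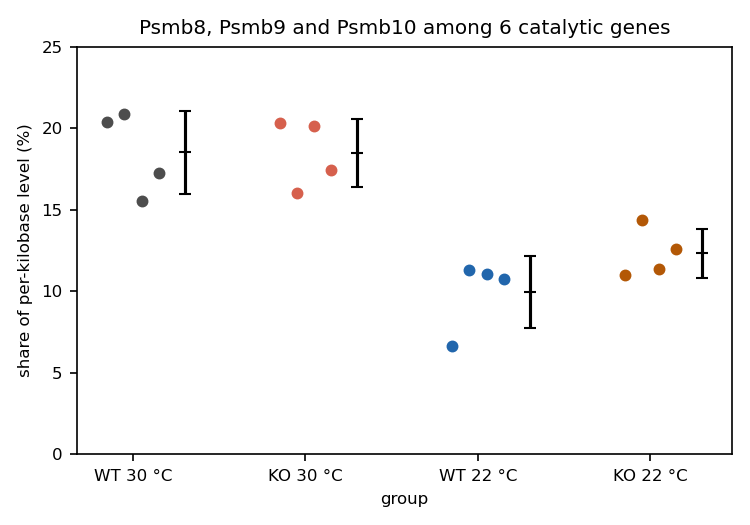
Share of Psmb8, Psmb9 and Psmb10 in the summed per-kilobase level of the 6 catalytic genes, in percent, with points for the 4 libraries of each group and a bar for the mean ± SD. All libraries at 30 °C lie at 15.5% or above and all at 22 °C at 14.4% or below.

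The second comparison took temperature in KO, where fewer members were called than in WT. At 22 °C, 10 members were called higher and 1 lower, beside 13.8% of all genes higher and 13.0% lower. The 10 were constitutive subunits, 3 alpha ring genes (Psma1, Psma3 and Psma5), the beta ring gene Psmb3, the ATPase gene Psmc4, Psmd2 of the base and 4 lid genes (Psmd6, Psmd11, Psmd12 and Psmd14). The 1 was Psmb10. The median log2 fold change of the 31 constitutive subunits was 0.23, beside 0.02 over all genes. The groups did not overlap for 25 of them, all higher, beside 17.7% of all genes.

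Psma1 changed most among the members called higher. In KO it measured 116, 108, 119 and 112 CPM at 30 °C and 158, 176, 168 and 169.5 CPM at 22 °C. The groups were wide apart, and the log2 fold change was 0.56 (SE 0.0806, edgeR adjusted p = 0.000194), a call kept in all 23 alternative settings. Psmd11 of the lid, a subunit known to promote assembly of the 26S form, measured 48.5, 53.2, 53.1 and 50.2 CPM at 30 °C and 74.0, 60.2, 66.3 and 57.1 CPM at 22 °C (log2 fold change 0.33, SE 0.0816, edgeR adjusted p = 0.00824). Psma3 of the alpha ring measured 18.9, 17.5, 16.8 and 18.6 CPM at 30 °C and 22.9, 21.5, 21.6 and 20.96 CPM at 22 °C (log2 fold change 0.28, SE 0.0762, edgeR adjusted p = 0.0141). For both genes the temperatures did not overlap. Without the muscle-bearing libraries the calls of Psmd11 (0.25, adjusted p = 0.130 with edgeR) and Psma3 (0.27, 0.137) were lost, and that of Psma3 also with upper-quartile factors (0.0761) and library totals alone (0.0873). Reads of Psma3 can be shared with 3110056K07Rik on the opposite strand, whose counts were 57.3% of its own.

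The count in KO was not stable. Leaving out single libraries gave 3 to 27 calls. Without WT replicate 2 at 22 °C, which is not in this comparison but enters the shared estimate of spread, 25 members were higher and 2 lower. The count was 7 without any 1 of the 4 WT libraries at 30 °C and 7, 6, 6 and 3 without KO replicates 1, 2, 3 and 4 at 30 °C. It was 5 without KO replicate 1, 2 or 3 at 22 °C, 3 without replicate 4, and 1, Psma1, without the muscle-bearing libraries. In that last run the median log2 fold change of the members was 0.19, beside 0.22 with all libraries. Upper-quartile factors left 2 higher and 2 lower, with a median of -0.08 over all genes. With library totals alone 2 were higher and 1 lower.

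The third comparison set KO against WT at 22 °C. Of the 38 members 21 were called lower and 0 higher, beside 10.1% of all genes lower and 7.52% higher. Among the 31 constitutive subunits 19 were lower, with a median log2 fold change of -0.34 beside 0.02 over all genes. They were 3 of 7 alpha ring, 5 of 7 beta ring, 3 of 6 ATPase, 2 of 3 other base and 6 of 8 lid genes. The assembly chaperones Psmd5 and Psmd10 were the other 2. The groups did not overlap for 22 members, all lower in KO, beside 9.78% of all genes lower and 7.7% higher without overlap. The immunoproteasome genes were not called, with log2 fold changes of -0.05 for Psmb8 (SE 0.261, edgeR adjusted p = 0.921), 0.04 for Psmb9 (SE 0.260, edgeR adjusted p = 0.937) and -0.07 for Psmb10 (SE 0.190, edgeR adjusted p = 0.822).

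Psmd14 again had the smallest p. At 22 °C it measured 52.3, 51.7, 53.9 and 52.0 CPM in KO, close to each other, and 79.7, 98.4, 78.1 and 78.7 CPM in WT. No KO library came near the lowest WT library, and the log2 fold change was -0.67 (SE 0.0772, edgeR adjusted p = 4.92e-05). Psmd8 of the lid measured 160.0, 165, 163 and 163 CPM in KO and 241, 306, 219.8 and 238 CPM in WT (log2 fold change -0.63, SE 0.0954, edgeR adjusted p = 0.000596). Psmb7, with the values above, had a log2 fold change of -0.53 (SE 0.0887, edgeR adjusted p = 0.00117). The KO and WT libraries at 22 °C were apart for all 3 genes, and their calls were kept in all 23 alternative settings. Psmb5 was called lower (-0.41, SE 0.129, edgeR adjusted p = 0.0406), a call kept in 11 of the 23 settings only, and Psmb6 was not (-0.23, SE 0.125, edgeR adjusted p = 0.211). Psmb5 lost its call when replicate 1 or 2 of WT at 22 °C was left out (edgeR adjusted p = 0.0828 and 0.110), without any 1 of the 4 KO libraries at 22 °C (0.0565 to 0.0824), and without KO replicate 1 or 3 at 30 °C (0.0525 and 0.0513).

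Leaving out single libraries gave 15 to 26 members lower in KO at 22 °C, with 15 without WT replicate 2, when the median of the constitutive subunits was -0.21. Without the muscle-bearing libraries 11 members were lower, and with library totals alone, which moved the median over all genes to 0.15, 8 were. The median log2 fold change of the members without the muscle-bearing libraries was -0.34, beside -0.33 with all libraries. No setting called a member higher.

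**Figure D5:**
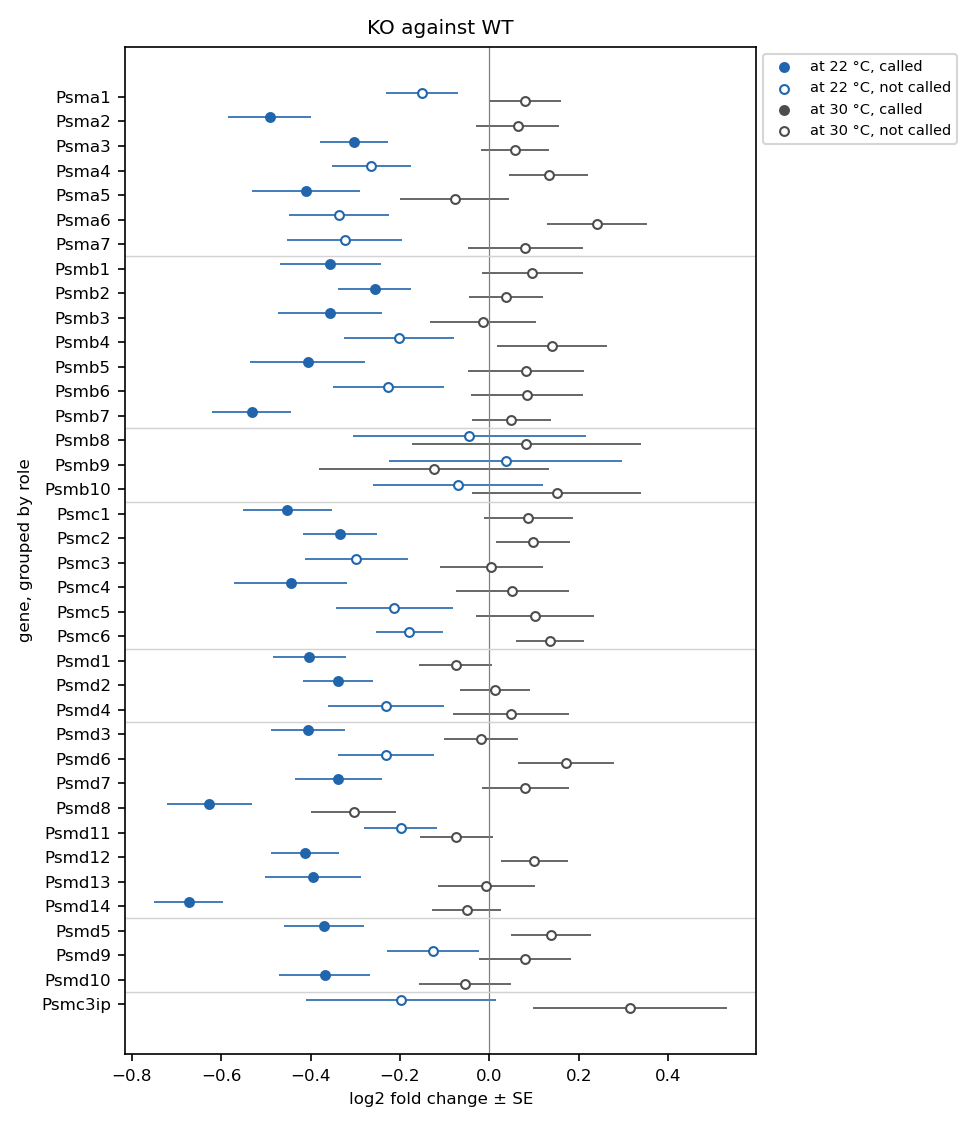
Log2 fold change of KO against WT with its standard error for the 38 tested members, grouped by role from the alpha ring (top) to Psmc3ip (bottom), at 22 °C (blue) and 30 °C (grey), with filled points for calls. At 22 °C all 31 constitutive subunits lie below 0, down to -0.67 for Psmd14, and at 30 °C no point is filled.

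At 30 °C no member was called between KO and WT, beside 0.0284% of all genes called higher and 0.0142% lower. At an unadjusted p under 0.05, 2 members of 38 passed, beside 4.31% of all genes, and DESeq2 called 0. The 2 were Psma6 (log2 fold change 0.24, SE 0.112) and Psmd8 (-0.30, SE 0.0953), named after their values were seen, both with an edgeR adjusted p = 0.998. Psmd8 measured 140.0, 125, 141 and 149.7 CPM in KO and 154, 175, 187 and 170.2 CPM in WT, all KO libraries below all WT libraries. Psma6 and Psmc6 were higher in KO without overlap and Psmd8 lower, beside 3.36% and 2.57% of all genes. The median log2 fold change of the constitutive subunits was 0.06, beside 0.02 over all genes.

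The difference between the temperature responses of KO and WT was tested as an interaction. It was negative for all 31 constitutive subunits, with 6 members called, Psma2, Psmb7, Psmc1, Psmd5, Psmd12 and Psmd14, beside 2.39% of all genes called in this direction and 0.752% in the other. The log2 difference was -0.62 (SE 0.109, edgeR adjusted p = 0.00713) for Psmd14, -0.51 (SE 0.107, edgeR adjusted p = 0.0210) for Psmd12 and -0.58 (SE 0.125, edgeR adjusted p = 0.0243) for Psmb7. The immunoproteasome genes were not called, at -0.13 (SE 0.366) for Psmb8, 0.16 (SE 0.366) for Psmb9 and -0.22 (SE 0.268) for Psmb10, with adjusted p from 0.658 to 0.866 with edgeR. Psmd14 kept its call in 22 of 23 alternative settings and lost it without the muscle-bearing libraries (-0.62, adjusted p = 0.135 with edgeR), when no member was called. The median log2 difference of the members was then -0.39, beside -0.36 with all libraries. Psmd12 kept its call in 17 and Psmb7 in 10, and Psma2, Psmc1 and Psmd5 in 8, 4 and 6. Reads of Psma2 can be shared with AW209491 on the same strand, whose counts were 26.2% of its own.

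The count of 6 changed when single libraries were left out. It was 2, 1, 2 and 2 without WT replicates 1, 2, 3 and 4 at 30 °C and 1, 1 and 3 without KO replicates 1, 3 and 4 at 30 °C. It was 11 without WT replicate 3 at 22 °C and 3, 3, 2 and 2 without KO replicates 1, 2, 3 and 4 at 22 °C. Without WT replicate 2 at 22 °C it stayed at 6, of which 5 were shared. It was 4 without KO replicate 2 at 30 °C, and 5 and 8 without WT replicates 1 and 4 at 22 °C. The median log2 difference of the members was -0.36 with all libraries and -0.42 to -0.28 without single ones. DESeq2 called 14 and library totals alone left 1. The comparisons share groups, so their values stand side by side and are not independent.

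Partners of the subunits were counted from lists of related genes. Over all genes tested, 20.5% were called higher and 17.8% lower in WT at 22 °C against 30 °C. In WT at 22 °C, 3 of 5 genes for activators and the inhibitor of the core were higher, Psme4 (log2 fold change 0.60), Psme2 (0.66) and Psme3 (0.32), and 0 were lower. Of 11 assembly factors and associated partners 7 were higher and 0 lower. They included Sem1 (0.87), the smallest lid component, Pomp (0.63), which matures the core, Adrm1 (0.49), a ubiquitin receptor, and Txnl1 (0.51). In the list of NFE2L1 and the enzymes that process it 5 of 9 were higher and 0 lower, with Ngly1 (0.59), which removes its sugar chains, Nploc4 (0.54), Ufd1 (0.40) and Vcp (0.34). Nfe2l1 itself was not called (0.12, SE 0.0726, edgeR adjusted p = 0.196). With library totals alone the activator list gave 1 higher and 1 lower, the assembly list 3 and 0, and the NFE2L1 list 2 and 1. Psme2 was then at 0.39 (edgeR adjusted p = 0.0764) and Psme3 at 0.037 (0.698).

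The same lists were counted in KO at 22 °C against 30 °C, beside 13.8% of all genes called higher and 13.0% lower. In the activator list 2 were higher, Psme4 (0.37, edgeR adjusted p = 0.00141) and Psme2 (0.53, 0.0319), and the inhibitor gene Psmf1 was lower (-0.34, 0.00480). The calls of Psme4 and Psmf1 were kept in all 23 alternative settings and that of Psme2 in 11. In the assembly list 2 of 11 were higher and 1 lower, near the shares over all genes. Leaving out replicate 4 of KO at 30 °C, or replicate 2 of KO at 22 °C, gave 0 and 1, KO replicate 3 at 30 °C 1 and 0, WT replicate 2 at 22 °C 4 and 1, and the muscle-bearing libraries 0 and 0. In the NFE2L1 list 4 of 9 were higher and 0 lower, with Syvn1 (0.48) and Nploc4 (0.39) first. The number was 2 when KO replicate 2 or 4 of 30 °C, or replicate 4 of 22 °C, was left out, and 1 without the muscle-bearing libraries.

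At 22 °C, KO against WT, the activator gene Psme4 was lower in KO (-0.35, edgeR adjusted p = 0.00378). Over all genes 10.1% were called lower and 7.52% higher in this comparison. In the assembly list 3 of 11 were lower and 0 higher, first Usp14 (-0.39, edgeR adjusted p = 0.00463), a deubiquitinase that sits on the proteasome. The number was 6 without WT replicate 4 at 22 °C and 1 with library totals alone. The NFE2L1 list gave calls in both directions, with Nfe2l2 (0.45, edgeR adjusted p = 0.0213) and Syvn1 (0.28, 0.0274) higher in KO and Ufd1 (-0.38, 0.00387) and Ngly1 (-0.27, 0.0345) lower. Without KO replicate 1 at 22 °C, or without the muscle-bearing libraries, 0 were higher and 1 lower, and without KO replicate 2 at 22 °C 1 and 1.

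Genes known to accompany the immunoproteasome were also counted. The shares over all genes were 20.5% higher and 17.8% lower with temperature in WT, and 13.8% and 13.0% in KO. For KO against WT at 22 °C these shares were 7.52% higher and 10.1% lower. In WT at 22 °C 13 of 16 interferon response genes were lower and 0 higher (median log2 fold change -0.87), among them Mx1 (-2.37), Usp18 (-1.28), Oasl2 (-1.17) and Ifi44 (-1.40). Of 10 antigen presentation genes 3 were lower, B2m (-0.60), Nlrc5 (-0.71) and Tap1 (-0.62), and Calr was higher (0.26). Upper-quartile factors gave 5 lower and 0 higher, and library totals alone 6 and 0. Only 1 was lower when WT replicate 1, 2 or 3 at 30 °C, or replicate 1 at 22 °C, was left out, and 2 were when replicate 4 of KO at 30 °C or replicate 3 of WT at 22 °C was. In KO 5 of 16 interferon response genes were lower and 0 higher, first Rtp4 (-1.01) and Bst2 (-0.66). The number was 8 when KO replicate 4 at 30 °C was left out, 9 when KO replicate 1 at 22 °C was, and 2 without the muscle-bearing libraries. At 22 °C 3 of 16 were higher in KO than in WT, Mx1 (1.46), Stat2 (0.65) and Irf9 (0.46). That count was 0 when WT replicate 1 or 2 or KO replicate 2 was left out, and 1 when WT replicate 3 or KO replicate 1 was.

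Markers of other cell types were counted in the same libraries, beside the same shares of all genes called. Of 10 macrophage markers 8 were lower and 0 higher at 22 °C in WT and also in KO, and their summed share of counts was 0.0237% to 0.0377% in WT and 0.0256% to 0.0316% in KO at 30 °C, and 0.0105% to 0.0230% and 0.0133% to 0.0165% at 22 °C. Endothelial markers took 0.110% to 0.122% in WT and 0.109% to 0.123% in KO at 30 °C, and 0.0573% to 0.0759% and 0.0723% to 0.0984% at 22 °C, with 4 of 6 lower in WT and 2 of 6 in KO (1 when KO replicate 3 at 30 °C was left out). At 22 °C, where 21 members were lower in KO than in WT, 4 of 6 endothelial markers were higher in KO and 0 lower (median log2 fold change 0.36). The number was 2 when WT replicate 4 of 30 °C, WT replicate 1 or 3 of 22 °C, or KO replicate 2, 3 or 4 of 22 °C was left out. Lymphocyte markers took at most 0.00135% in any library. None of the macrophage, endothelial or lymphocyte markers was at 0 counts in any library. The brown adipocyte list took 1.28% to 1.501% of counts at 30 °C and 1.70% to 2.81% at 22 °C over both genotypes, highest in WT replicate 2 at 22 °C, and included Ucp1, which was higher in WT (log2 fold change 2.03) and KO (2.00). Of the 11 genes of this list 8 were higher and 0 lower at 22 °C in WT, and 6 and 0 in KO. For KO against WT at 22 °C 1 was higher and 1 lower, with log2 fold changes from -0.79 to 1.16. In the interaction 0 were called, with log2 differences from -2.11 to 1.11. The part of these markers in the proteasome results was not tested.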

How the data were processed

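RNA from interscapular brown fat was measured by bulk RNA sequencing in 16 libraries, grouped by their titles. The deposited values are raw read counts (whole numbers), with 1 row per Ensembl identifier. FastQC 0.10.1, STAR 2.4.2a and edgeR 3.14.0 are named, per the submitters' processing notes, beside the builds GRCm38 and mm10, without their roles. Which program counted reads, on which annotation and strand, was not given in the sources used here. Symbols matched 37607 rows and left 1317 without one, with 0.132% of counts or less in every library. Positions and transcript lengths are from GENCODE M21 and promoters from RefSeq.

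All 16 libraries entered 1 edgeR 4.0.16 quasi-likelihood fit (R 4.3.3) with trimmed-mean (TMM) factors and a term per group. Of 24818 genes with a count, 14103 passed filterByExpr (minimum count 10). P-values were adjusted by Benjamini-Hochberg over all of them, at a threshold of 0.05. CPM are scaled by TMM-adjusted library size, and the standard error is the absolute log2 fold change over the root of F. Levels per kilobase used the longest principal transcript. The fit was also run on simulated counts with known changes, drawn with its own estimates of spread and scaling. The outcome is not given here. Such a run does not test the scaling or the library that stood apart.

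The members and lists were chosen with earlier results of these data known. Values in every library were given for the 6 catalytic genes and for up to 3 called members per comparison and direction with the smallest p, and up to 4 called genes with the smallest p of each related list could be named. The list of ubiquitin supply genes is not reported here as a whole. Alternatives were upper-quartile and relative-log-expression (RLE) factors, no filter on low counts, DESeq2 1.42.0, a replicate block, leaving out the muscle-bearing libraries and each library in turn, and no length scaling. Library totals alone, union exon lengths and the emphasis on WT replicate 2 at 22 °C were chosen after seeing the data.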

Additional observations from a re-analysis of the deposited data

Results flagged for a closer look

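In 5 of 56 groups of 4 libraries examined (the 6 catalytic genes, the named members and the summed measures), 1 library lay far from the other 3, where chance alone gives about 1 in 20 groups. Psmd14 measured 98.4 CPM in WT replicate 2 at 22 °C and 78.1 to 79.7 CPM in the others. Psmb6 measured 96.9 CPM in KO replicate 2 at 30 °C and 109 to 110.5 CPM in the others. Psmd12 measured 53.1 CPM in WT replicate 2 at 30 °C and 58.7 to 59.5 CPM in the others. The immunoproteasome share was 6.62% in WT replicate 1 at 22 °C and 10.8% to 11.3% in the others. The summed level of the constitutive subunits was 2758 CPM in KO replicate 4 at 22 °C and 2859 to 2860.2 CPM in the others. For the same sum WT replicate 2 at 22 °C, at 4465 CPM beside 3117 to 3487 CPM in its group, was not flagged.

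The temperature response differed between KO and WT for 6 members by the interaction test. The log2 differences were -0.62 for Psmd14, -0.58 for Psmb7, -0.55 for Psma2, -0.54 for Psmc1, -0.51 for Psmd12 and -0.51 for Psmd5, all smaller in KO.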

How the results depend on the processing

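The counts of members called for temperature in WT (31 to 35 without single libraries) and for KO against WT at 30 °C (0) moved by less than 1.5 times in every alternative run. The members behind the WT count changed, however. Without WT replicate 2 at 22 °C 32 were higher and 3 lower, and with library totals alone 22 and 3, in place of 34 and 0. The 3 were the immunoproteasome genes in both runs. For temperature in KO, single libraries left out gave 3 to 27 calls in place of 11, upper-quartile factors 4, library totals alone 3, no filter 6 and leaving out the muscle-bearing libraries 1. For KO against WT at 22 °C they gave 15 to 26 in place of 21, library totals alone 8 and leaving out the muscle-bearing libraries 11. For the interaction they gave 1 to 11 in place of 6, library totals alone 1, no filter 3, DESeq2 14 and leaving out the muscle-bearing libraries 0. The cause was not tested. Same-numbered libraries were not paired by origin in the labels, and their deviations correlated at a median of 0.17 over 24 pairs (-0.50 to 0.52), with 1 of 16 libraries closest to its own number. With the replicate block the counts were 33 for temperature in WT, 8 for temperature in KO, 17 for KO against WT at 22 °C, 0 at 30 °C and 1 for the interaction.

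The immunoproteasome share was 25.1%, 25.1%, 13.7% and 17.1% in WT and KO at 30 °C and WT and KO at 22 °C with no length scaling, and 22.4%, 22.6%, 12.3% and 14.9% with union exon lengths. Without single libraries it was 17.7% to 19.5%, 17.9% to 19.3%, 9.49% to 11.1% and 11.7% to 12.8%.

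Small log2 fold changes turned sign, none of them called on either side except Syvn1, Uba1 and Calr. With library totals alone these were Psmb6 in KO with temperature (-0.021), Psmb10 (0.056) and Psmb8 (0.072) for KO against WT at 22 °C, Psmb7 for KO against WT at 30 °C (-0.0062), Psmb8 in the interaction (0.048), and, with temperature in WT, Syvn1 (-0.012), Uba1 (-0.076) and Calr (-0.023), which had been called higher. Upper-quartile factors gave -0.025 for Psmb6 in KO. Leaving out single libraries, the values for KO against WT at 22 °C ran from -0.18 to 0.18 for Psmb10, from -0.27 to 0.18 for Psmb8 and from -0.16 to 0.29 for Psmb9. At 30 °C they ran from -0.033 to 0.18 for Psmb8 and from -0.29 to 0.016 for Psmb9. In the interaction they ran from -0.33 to 0.035 for Psmb10, from -0.35 to 0.10 for Psmb8 and from -0.036 to 0.42 for Psmb9.

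Low counts limit Psmc3ip, Psma8 and Psmb11, and overlapping genes on the opposite strand limit 8 members in which they held over 1% of the counts of the member. These members are Psma3, Psmb7, Psmb9, Psmc3, Psmc3ip, Psmd5, Psmd9 and Psmd13. Sirt3 overlaps Psmd13 with 122% of its counts, and Slc39a13 overlaps Psmc3 with 31.1%. Both members were called higher in WT at 22 °C, and Psmd13 was called lower in KO than in WT at 22 °C. Psma2 is also limited by AW209491, which overlaps it on the same strand over 8943 bases with 26.2% of its counts.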
